A study of Homo sapiens with 8 samples.

Results

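EPH receptors are the largest family of receptor tyrosine kinases, and ephrins are their ligands, held in the membrane of the neighbouring cell. A-class ephrins are anchored by a lipid and bind mainly EPHA receptors, whereas B-class ephrins cross the membrane and bind mainly EPHB receptors, so that contact sends a forward signal into the receptor cell and a reverse signal into the ephrin cell. In breast cancer cells the pair is known for control of adhesion, repulsion and migration, and ABL kinases are among the tyrosine kinases that act with EPH receptors. Here 10 genes of the family were followed by symbol, comprising 6 receptors (EPHA2, EPHA4, EPHB2, EPHB3, EPHB4 and EPHB6) and 4 ephrins (EFNA1, EFNA5, EFNB1 and EFNB2), out of 58688 genes in the count files.

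RNA was sequenced from 8 samples of LM2, a lung-metastatic derivative of the triple negative human breast cancer line MDA-MB-231. In the first experiment, 2 samples were treated with DMSO and 2 with Ponatinib, an inhibitor of ABL and several other tyrosine kinases, at 1 µmol/L for 6 h. In the second, cells carried a lentiviral scrambled shRNA (shCtrl), ABL1 shRNA, ABL2 shRNA or both shRNAs, with 1 sample each, after 48 h with virus and 8 µg/mL Polybrene and then puromycin selection. The first experiment asks what the drug changes and the second what knockdown of its target ABL changes. The paper lists 1 shRNA for each ABL gene, so effects particular to that shRNA were not tested.

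Total counts on genes ran from 7568934 to 13010896 per sample. LM2 markers were present throughout. VIM, the mesenchymal filament protein, had 23217 to 33084 counts, EGFR 2776 to 6233, CD44 4205 to 8526, MSN 6135 to 10967 and AXL 4183 to 13942. With Ponatinib the log2 fold changes against DMSO were -0.68 (EGFR), -0.41 (CD44), -0.32 (MSN) and -0.29 (AXL), against 0.06 for VIM. PGR had 0 counts in every sample and ESR1 3 to 11. ERBB2 had 515 to 826 counts and CDH1 0 to 23. Of 4 markers of other cell types, PTPRC and DCN had at most 4 counts in any sample. COL1A1 had 4623 counts in shCtrl against 1285 to 2851 in the 3 knockdown samples. PECAM1, an endothelial marker, went the other way, with 233 counts in shCtrl against 398 (ABL1 shRNA), 499 (ABL2 shRNA) and 393 (both), and had 18 to 42 counts with DMSO or Ponatinib. The part of these markers in the differences from shCtrl was not tested. The summed level of the 4 was 65.2 to 89.2 CPM (counts over the library total) with DMSO or Ponatinib and 130 to 419 CPM in the shRNA samples. Levels were therefore not tested between the experiments. Comparisons rest on log2 fold changes within each, and levels of both are given as description only.

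The promoters of 3 members are shown because EPHA2 and EFNB2 had the best supported falls with Ponatinib and EPHB4 rose. The runs are the 250 bases before each gene start (RefSeq, GRCh38.p14), read 5′ to 3′ on the gene's strand, at chr1:16156070-16156319 (minus strand), chr13:106535663-106535912 (minus strand) and chr7:100827524-100827773 (minus strand). Capitals mark matches to 4 motifs searched on both strands, which are the AP-1 site TGANTCA, the cAMP response element TGACGTCA, the TEAD site GGAATG and the ETS core CCGGAA.
EPHA2: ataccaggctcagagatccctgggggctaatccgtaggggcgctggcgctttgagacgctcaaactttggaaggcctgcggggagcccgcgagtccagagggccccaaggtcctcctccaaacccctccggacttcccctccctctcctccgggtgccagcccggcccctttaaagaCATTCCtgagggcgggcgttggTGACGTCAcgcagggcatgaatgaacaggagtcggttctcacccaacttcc
EFNB2: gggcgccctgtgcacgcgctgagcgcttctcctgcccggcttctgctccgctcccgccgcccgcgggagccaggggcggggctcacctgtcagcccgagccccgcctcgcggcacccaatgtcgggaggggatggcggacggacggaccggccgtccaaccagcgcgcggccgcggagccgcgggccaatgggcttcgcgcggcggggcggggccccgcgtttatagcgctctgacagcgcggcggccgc
EPHB4: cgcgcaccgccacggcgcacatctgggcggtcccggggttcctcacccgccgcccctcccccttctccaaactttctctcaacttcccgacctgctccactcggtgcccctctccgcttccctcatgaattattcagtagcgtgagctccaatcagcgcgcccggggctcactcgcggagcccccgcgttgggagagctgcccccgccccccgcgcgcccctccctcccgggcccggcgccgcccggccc

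The EPHA2 promoter held the cAMP response element from 51 to 44 bases before the start and a TEAD match on the opposite strand from 73 to 68 bases before it. No other member's window held any of the 4 letter strings. Of 35116 promoter windows of this length, 1.65% held the cAMP response element, 6.57% the AP-1 site, 11.9% the TEAD site and 14.5% the ETS core. GC content of the members' windows ranged from 43.2% to 84.8%. These matches describe letters only.

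With DMSO alone, EPHA2 was by far the main EPH receptor mRNA of LM2. Its level per length was 383 ± 7.0 TPM with DMSO (SD, n = 2), where TPM is counts divided by the summed exon length and scaled to the same total in every sample. EFNB2, a B-class ephrin known for its role in blood vessel formation, was the next member at 45.3 ± 0.67 TPM. EPHB4, its preferred receptor, stood at 27.8 ± 3.2 TPM. EFNA5, an A-class ephrin, was at 19.6 ± 1.5 TPM and EPHB2 at 15.8 ± 0.19 TPM. Below them came EFNB1 at 7.50 ± 1.2, EPHA4 at 4.41 ± 0.20, EFNA1 at 2.72 ± 1.2 and EPHB3 at 0.741 ± 0.41 TPM. EPHB6, a receptor with an inactive kinase domain, had 0 counts in both DMSO and both Ponatinib samples, which allows up to 0.396 CPM in the shallowest of them. In this order the DMSO values of neighbouring genes did not overlap. The lower value of EPHA4 (4.26 TPM) lay close to the higher value of EFNA1 (3.54 TPM). The order also depends on the exon lengths used. Before division by length, EPHB2 was at 59.3 and 58.7 CPM with DMSO, above EPHB4 at 48.7 and 57.7 CPM.

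EPHA2 fell after Ponatinib treatment. The gene lies on chromosome 1 from 16124337 to 16156069, and its exons overlap no other gene. In CPM normalized by edgeR's TMM method, it was at 473 and 488 in the DMSO samples and at 121 and 128 in the Ponatinib samples. The groups were far apart, and the drop was several times the distance between replicates. It amounted to 3.85-fold, or -1.94 on the log2 scale (SE 0.06), and edgeR's quasi-likelihood test gave an adjusted p of 1.6e-11 (Benjamini-Hochberg, 16031 genes). Ordered by log2 fold change from the largest fall, EPHA2 was number 47 of these genes. RNA from whole cultures cannot tell fewer expressing cells from less RNA per cell.

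Of the 9 members with enough counts to be tested, 4 changed, 3 down and 1 up. Over all genes tested 30.7% changed, 15.7% down and 15% up, so the number of members called was near the background. The median log2 fold change was 0.09 over the 9 members and -0.0047 over all genes. The study's own threshold asks for more than 2-fold with P under 0.05 before adjustment. It called EPHA2 (lower) and EPHB3 (higher), against 5.48% of all genes, 2.29% lower and 3.19% higher. The DMSO and Ponatinib samples did not overlap in 7 of 9 members, against 64.9% of all genes.

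The second A-class receptor, EPHA4, is known for axon guidance and binds both ephrin classes. It lies on chromosome 2 from 221418027 to 221574202. It was at 9.74 and 10.4 normalized CPM with DMSO and at 6.85 and 7.68 with Ponatinib. The groups did not overlap, and EPHA4 fell by 0.48 on the log2 scale (SE 0.17, adjusted p by edgeR 0.040). This call is weak, because DESeq2's Wald test gave an adjusted p of 0.27 and leaving out either DMSO sample or Ponatinib replicate 1 also lost it. An antisense gene overlaps 4.7% of the EPHA4 exon length, and the strand setting of the counting is not given in the sources used here.

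Of the B-class receptors EPHB4 rose. EPHB4 (chromosome 7, 100802565 to 100827523) was at 49.6 and 58.7 normalized CPM with DMSO and at 68.6 and 75.1 with Ponatinib. Both treated samples lay above both controls, and the rise was 0.41 on the log2 scale (SE 0.09, adjusted p by edgeR 0.0026). Without DMSO replicate 1, the lower of the controls, the log2 fold change was 0.29 and the edgeR adjusted p 0.095. EPHB3 (chromosome 3, 184561785 to 184582408), a receptor of intestinal crypts that positions cells along them, was rare, with 7 and 14 counts with DMSO and 20 and 18 with Ponatinib. The normalized samples did not overlap. The log2 difference was 1.06 (SE 0.40, adjusted p by edgeR 0.059), and it ranged from 0.56 to 1.74 when a sample was left out. The value of 1.74 came without DMSO replicate 2, where edgeR's adjusted p was 0.032.

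EPHB2 (chromosome 1, 22710839 to 22921500) was at 60.5 and 59.8 normalized CPM with DMSO and at 57.9 and 54.0 with Ponatinib. The groups did not overlap here either. EPHB2's log2 fold change of -0.10 had a 95% interval of -0.26 to 0.06, with an adjusted p of 0.36 by edgeR. EPHB6, on chromosome 7 from 142855061 to 142871094, was not tested.

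Among the ephrins, EFNB2 fell. This B-class ligand (chromosome 13, 106489745 to 106535662) was at 67.8 and 69.6 normalized CPM with DMSO and at 44.5 and 46.9 with Ponatinib. The samples formed separate pairs, and the fall was 1.51-fold, or -0.59 on the log2 scale (SE 0.08, adjusted p by edgeR 3.2e-05). Fits that omitted 1 sample gave -0.63 to -0.54.

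Its B-class relative EFNB1 (chromosome X, 68829021 to 68842160), which guides craniofacial development, was at 8.32 and 6.68 with DMSO and at 9.41 and 8.20 with Ponatinib. These ranges overlapped, and the log2 fold change of 0.23 had a 95% interval of -0.15 to 0.62. The A-class ephrin EFNA5 (chromosome 5, 107376894 to 107670937) overlapped as well, at 32.1 and 36.1 against 35.0 and 37.7. Its log2 fold change was 0.09 with a 95% interval of -0.11 to 0.30. EFNA1, the A-class ligand that binds EPHA2 (chromosome 1, 155127876 to 155134899), had 14 and 23 counts with DMSO and 34 and 21 with Ponatinib. Its normalized level was higher in both treated samples, by 0.78 on the log2 scale (SE 0.33, adjusted p by edgeR 0.087). It ranged from 0.37 without DMSO replicate 1 to 1.27 without DMSO replicate 2, where edgeR's adjusted p was 0.58 and 0.036.

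**Figure D1:**
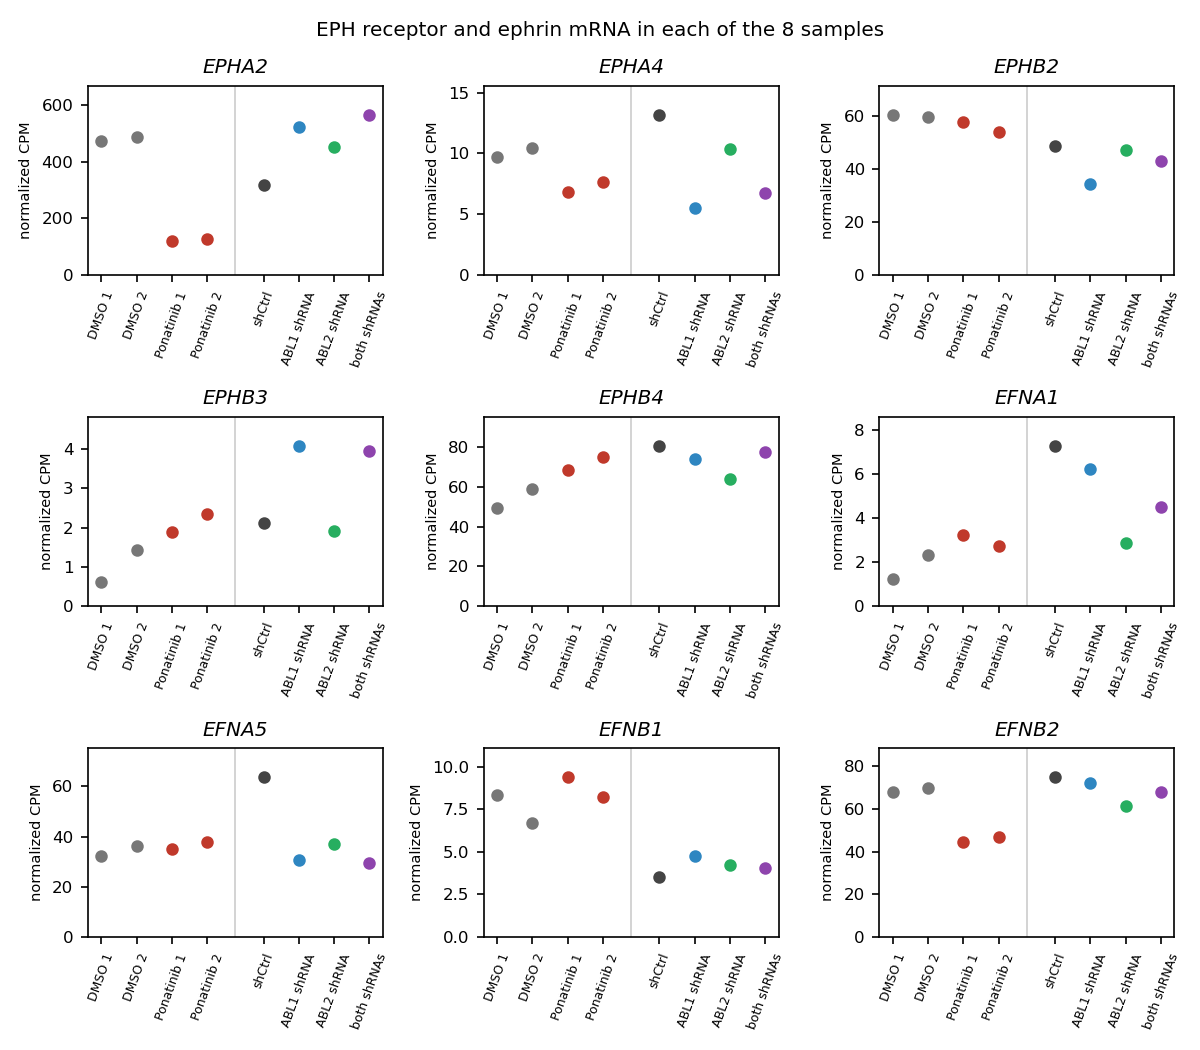
Normalized CPM (y axes, linear from 0) of the 9 members with counts in most samples, with 1 point per sample. A grey line separates the DMSO and Ponatinib samples from the shRNA samples, which were normalized on their own, and EPHA2 sits at 121 and 128 with Ponatinib against 473 and 488 with DMSO.

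The make-up of the receptor mRNA pool differed between DMSO and Ponatinib. Over all 14 EPH receptor genes, the summed level was 426 and 441 TPM with DMSO and 154 and 172 TPM with Ponatinib. EPHA2 made up 88.3% ± 0.56 of that sum with DMSO and 62.9% ± 0.055 with Ponatinib (SD, n = 2 each). Receptors of the EPHB class went from 10.2% ± 0.54 to 33.6% ± 0.21, and EPHB4 alone from 6.39% ± 0.59 to 23.3% ± 0.53. Since shares add to a fixed total, a fall of EPHA2 raises the others' shares. The summed level of the other 13 receptors was 48.3 and 53.5 TPM with DMSO and 57.1 and 63.7 TPM with Ponatinib.

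The ephrin sums lay closer together. The 8 ephrin genes summed to 85.7 and 90.1 TPM with DMSO and to 77.6 and 82.9 TPM with Ponatinib. EFNB2 made up 51.5% ± 1.0 of the sum with DMSO and 38.6% ± 1.0 with Ponatinib. EFNA4, an A-class ephrin outside the 10 members, was the third most abundant ephrin at 12.7% ± 0.32 and 15.1% ± 0.81. Per length the EPH receptor sum exceeded the ephrin sum in every sample.

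**Figure D2:**
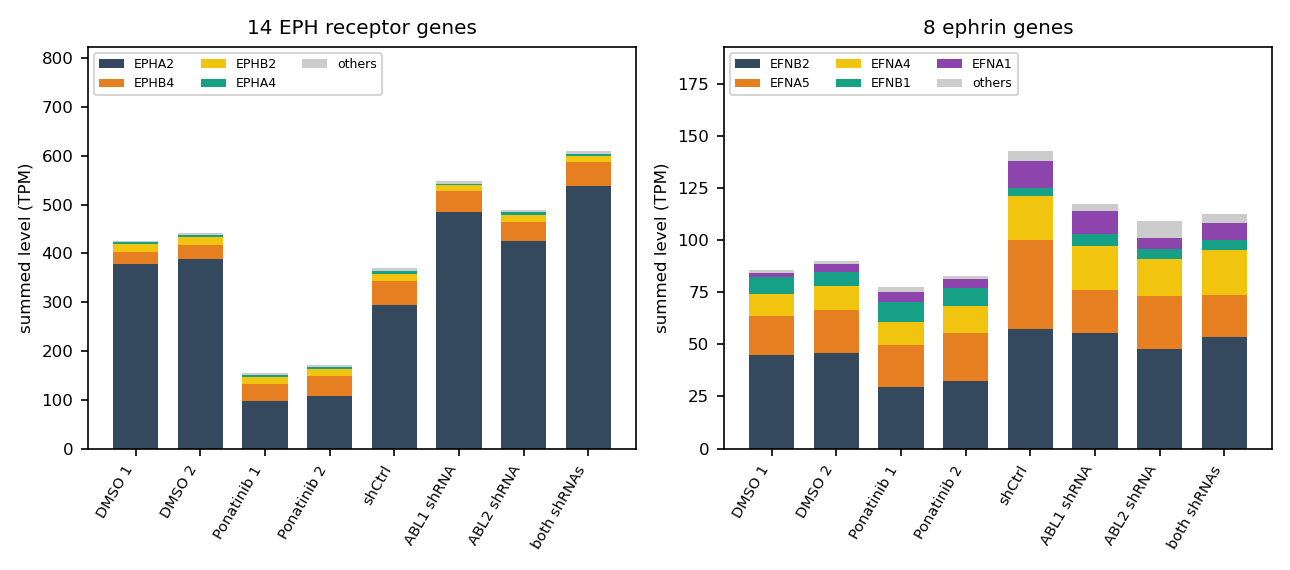
Summed TPM of the 14 EPH receptor genes (left) and the 8 ephrin genes (right) in each sample, as stacked bars from 0 with the most abundant genes in colour and the others in grey. The receptor sum was 426 and 441 with DMSO and 154 and 172 with Ponatinib, and EPHA2 is the largest part of each receptor bar.

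The knockdown samples were checked first for the targeted genes. ABL1 was at 190 normalized CPM in shCtrl and 72.8 with ABL1 shRNA, and ABL2 was at 236 in shCtrl and 93.5 with ABL2 shRNA. With both shRNAs ABL1 was at 109 and ABL2 at 148, each less than 2-fold below shCtrl. The column headings of shCtrl and ABL1 shRNA name each other's condition, but the ABL1 level goes with the sample labels, which were used. These single samples have no replicate check, so intervals below are 95% intervals of the ratio that cover counting error only, and a member was called when it differed from shCtrl by more than 2-fold. All 3 comparisons share the shCtrl sample.

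EPHA2 was above shCtrl in all 3 knockdowns. Its level was 319 normalized CPM in shCtrl against 521 (ABL1 shRNA), 450 (ABL2 shRNA) and 565 (both). The log2 fold changes were 0.71 (0.65 to 0.77), 0.50 (0.44 to 0.56) and 0.83 (0.77 to 0.88). None was past 2-fold. With Ponatinib the log2 fold change of the same gene was -1.94. Across all 15194 genes shCtrl was the lowest of the 4 samples for 29.7%, so a position below all 3 knockdowns is common. In CPM over the library total, EPHA2 was at 313 in shCtrl and 455 to 572 in the knockdowns, against 464 and 479 with DMSO. Levels were not tested between the experiments.

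EFNA5 was the member furthest below shCtrl with both shRNAs. Its level was 63.7 normalized CPM in shCtrl against 30.6 (ABL1 shRNA), 37.0 (ABL2 shRNA) and 29.4 (both). All 3 knockdowns lay far under the single shCtrl sample and near each other. The log2 fold changes were -1.06 (-1.24 to -0.88), -0.78 (-0.96 to -0.61) and -1.12 (-1.31 to -0.93), past 2-fold for ABL1 shRNA and for both. Across all 15194 genes shCtrl was the highest of the 4 samples for 29.9%, so a position above all 3 knockdowns is common. In CPM over the library total, EFNA5 was at 62.5 in shCtrl and 29.7 to 37.4 in the knockdowns, against 31.5 and 35.4 with DMSO. Levels were not tested between the experiments. After Ponatinib treatment EFNA5 did not pass the test. Its share of the summed ephrin TPM was 29.9% in shCtrl and 17.5%, 23.1% and 18.0% in the knockdowns, while the share of EPHA2 in the receptor sum was 79.7% in shCtrl and 88.5%, 86.9% and 88.4%.

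EPHA4 and EPHB3 were furthest from shCtrl in the samples that carried ABL1 shRNA. EPHA4 was at 13.2 normalized CPM in shCtrl and 10.3 with ABL2 shRNA, but at 5.48 with ABL1 shRNA and 6.74 with both. The log2 fold change with ABL1 shRNA was -1.26 (-1.69 to -0.85), past 2-fold. It was -0.96 (-1.37 to -0.57) with both and -0.35 (-0.70 to -0.0031) with ABL2 shRNA. EPHB3 had 24 counts in shCtrl and 24 with ABL2 shRNA, against 53 with ABL1 shRNA and 48 with both. The log2 fold changes of the latter were 0.95 (0.23 to 1.72) and 0.90 (0.17 to 1.68), just under 2-fold.

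EFNA1 was lowest with ABL2 shRNA. Its counts were 83 in shCtrl against 81 (ABL1 shRNA), 36 (ABL2 shRNA) and 55 (both). The log2 fold change with ABL2 shRNA was -1.35 (-1.96 to -0.77), the only member past 2-fold there, while it was -0.22 with ABL1 shRNA (-0.68 to 0.24) and -0.69 with both (-1.21 to -0.18).

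The other members with counts stayed closer to shCtrl. EPHB2 was at 48.6 normalized CPM in shCtrl against 34.4 (ABL1 shRNA), 47.3 (ABL2 shRNA) and 42.9 (both), and its largest log2 fold change was -0.50 (-0.68 to -0.32) with ABL1 shRNA. EPHB4 ran from 64.0 with ABL2 shRNA to 80.7 in shCtrl. EFNB2 was at 75.0 in shCtrl against 72.0 (ABL1 shRNA), 61.3 (ABL2 shRNA) and 67.8 (both). None of the knockdown values of EFNB2 was further from its control than a log2 fold change of -0.29 (-0.43 to -0.15). EFNB1 was at 3.51 in shCtrl and between 4.03 and 4.78 in the knockdowns, with all 3 counting intervals including 0. EPHB6 had 1 count in shCtrl, 3 with ABL2 shRNA and 0 with ABL1 shRNA or both, so no fold is given.

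Counted over the 9 members that passed the filter of a mean of 10 counts, ABL1 shRNA had 2 past 2-fold, against 6.91% of all genes. ABL2 shRNA had 1, against 5.87%, and both shRNAs had 1, against 5.79%. All were below shCtrl, where the shares of all genes were 3.26%, 2.27% and 2.31%, and no member was more than 2-fold above it, against 3.65%, 3.6% and 3.48%. The shCtrl sample was the highest of the 4 samples for 6 of the 9 members and for 29.9% of all genes. Median log2 fold changes of the members were -0.13, -0.29 and -0.15, against 0.0047, -0.0074 and 0.0005 for all genes.

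**Figure D3:**
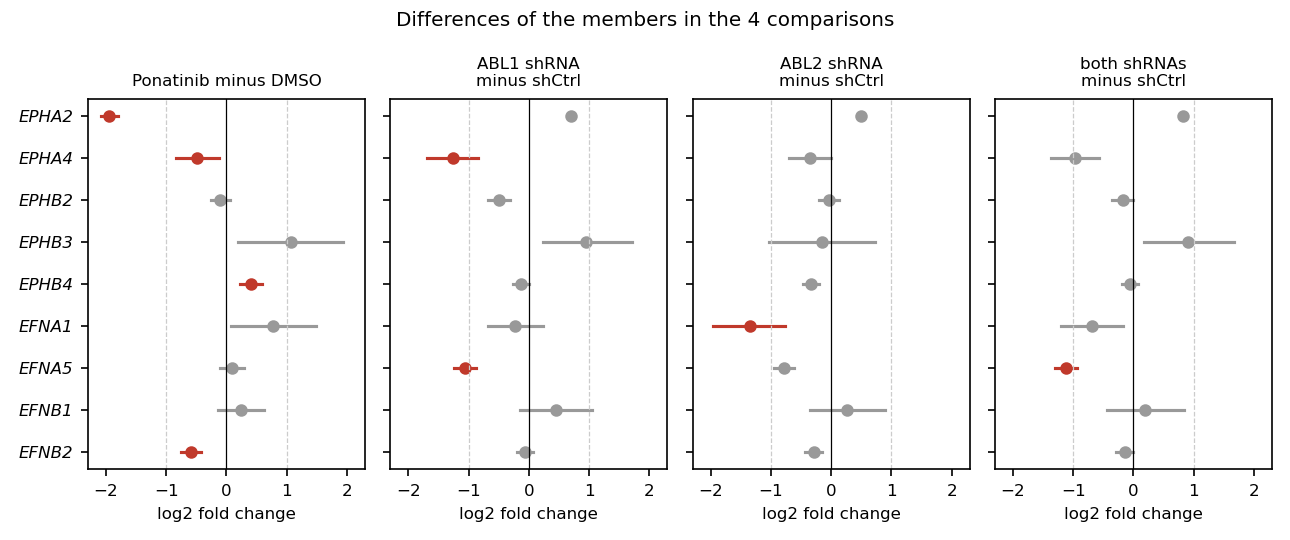
Log2 fold changes (x axes) of 9 members after Ponatinib treatment and in the 3 knockdowns, with horizontal lines for 95% intervals, which come from edgeR's fit for Ponatinib and from counting error alone for the knockdowns. Red marks an edgeR adjusted p under 0.05 (Ponatinib) or more than 2-fold (knockdowns), and EPHA2 lies at -1.94 with Ponatinib and at 0.50 to 0.83 in the knockdowns.

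All 3 knockdowns are set against the same single shCtrl sample, whose spread cannot be measured. A fit of all 8 samples in edgeR gives the knockdowns a test, but its spread comes only from the DMSO and Ponatinib pairs. In it EPHA2 was above shCtrl in all 3 knockdowns (edgeR adjusted p = 5.6e-06, 0.00042 and 1.5e-06 for ABL1 shRNA, ABL2 shRNA and both) and EFNA5 was below it in all 3 (edgeR adjusted p = 2.5e-06, 8.8e-05 and 2.3e-06). With ABL1 shRNA 4 of 9 members passed, against 22% of all genes. With ABL2 shRNA it was also 4, against 15.6%, and with both it was 3, against 17.8%. EPHA4 passed with ABL1 shRNA and with both, EPHB2 with ABL1 shRNA, and EPHB4 and EFNA1 with ABL2 shRNA. Past 2-fold as well were EPHA4 and EFNA5 with ABL1 shRNA, EFNA1 with ABL2 shRNA and EFNA5 with both, against 3.89%, 3.04% and 3.03% of all genes.

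Of the other 12 EPH and ephrin genes, EFNA4 stood at 11.2 ± 0.68 TPM with DMSO and the rest at 1.45 TPM or below. After Ponatinib treatment 3 of the 12 could be tested and none passed the edgeR test at an adjusted or an unadjusted p under 0.05 (EPHA5, EPHA6 and EFNA4, with log2 fold changes of 0.43, 0.22 and 0.07). EPHA3, EPHA8 and EPHB1 had 0 counts in all 4 of these samples. In the shRNA samples 5 passed the filter. EPHA5, an A-class receptor of the nervous system, had 80 counts in shCtrl and 72 with ABL2 shRNA but 37 with ABL1 shRNA and 42 with both. Its log2 fold changes of -1.30 (-1.90 to -0.72) and -1.02 (-1.60 to -0.47) in the last pair were past 2-fold. EFNB3 had 19 counts in shCtrl against 9 (ABL1 shRNA), 37 (ABL2 shRNA) and 19 (both), past 2-fold with ABL1 shRNA, and EFNA4 stayed within 71 to 90. EFNA3 had 12 to 29 counts and EPHA6 9 to 16.

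Genes that act with EPH receptors and ephrins were read from a list of 45 partners, of which 41 could be tested after Ponatinib treatment. There 6 rose and 8 fell, and 27 did not pass, with a median log2 fold change of -0.04. Over all genes 15% rose and 15.7% fell, so the number of partners called was near the background. CHN1, a brake on the GTPase RAC that acts downstream of EPHA4, rose from 188 and 176 counts to 452 and 309, or 1.28 on the log2 scale (SE 0.10, adjusted p by edgeR 2.3e-07). ABL2 fell by 1.02 on the log2 scale (edgeR adjusted p = 8.6e-08). MMP14, a membrane protease that cleaves EPHA2, fell by 0.93 (edgeR adjusted p = 2.3e-08). GRB10, an adaptor, rose by 0.65, FYN, a SRC family kinase, rose by 0.48, and PTPN1, a tyrosine phosphatase, fell by 0.45 (edgeR adjusted p = 2.3e-06, 0.00011 and 5.9e-05). The GTPases RHOA, RAC1 and CDC42 did not pass the test. VAV3, an exchange factor for RAC, had 0 counts in both DMSO samples and 8 and 4 with Ponatinib, too few to be tested.

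In the knockdowns 42 partners passed the filter. With ABL1 shRNA 3 were past 2-fold, which were ABL1 itself and the rare GRB7 (13 counts in shCtrl and 53) and VAV3 (5 and 21), both higher. With ABL2 shRNA ABL2 was lower, and GRB7 (13 and 34) and NGEF, an exchange factor that binds EPHA4 (139 and 359), were higher. With both shRNAs none was past 2-fold, ABL1 and ABL2 included. GRB7 and NGEF were still above shCtrl there (26 and 294 counts), and NGEF was also above it with ABL1 shRNA (279 counts). The shares of all genes past 2-fold were 6.91%, 5.87% and 5.79%. In the fit of all 8 samples 12, 11 and 10 of 42 partners passed at an adjusted p under 0.05, against 22%, 15.6% and 17.8% of all genes.

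**Figure D4:**
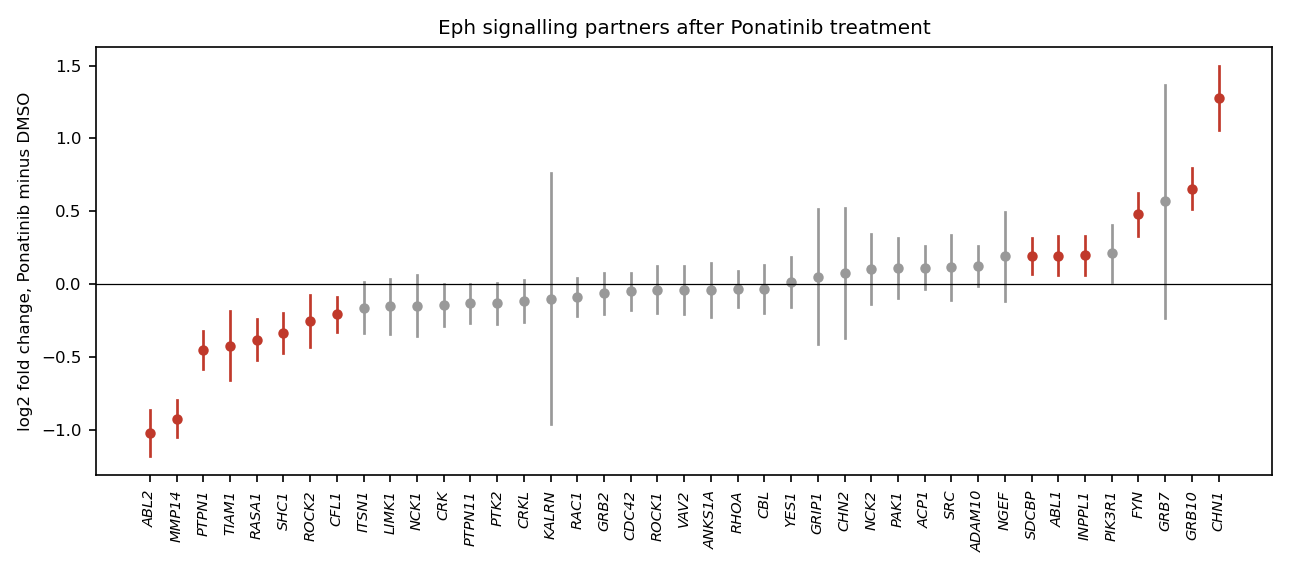
Log2 fold change (y axis) after Ponatinib treatment of the 41 partner genes tested, ordered by value, with vertical lines for 95% intervals from edgeR's fit. Red marks an edgeR adjusted p under 0.05, with 8 genes below 0 and 6 above it, from ABL2 at -1.02 to CHN1 at 1.28.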

How the data were processed

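RNA of 8 LM2 samples was made into NEBNext Ultra libraries and sequenced on an Illumina HiSeq. The authors mapped the reads to hg38 with Bowtie/TopHat (version not given in the sources used here), counted them with HTSeq 0.6.0 per the labels, and deposited raw read counts per gene without normalization. The counter's summary rows in the shRNA files were left out of library sizes (unassigned reads were 9.48% to 9.90% and ambiguous reads 6.12% to 6.32% there).

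Ponatinib and DMSO (n = 2 each) were compared by the quasi-likelihood test of edgeR 4.0.16 (R 4.3.3), after TMM scaling and filterByExpr, with p-values adjusted over all genes. Nothing says that replicates were separate cultures, so p-values cover the spread between these samples. They differed by more than sampling noise (chi-square per degree of freedom 1.44 and 3.13). Each knockdown was compared with shCtrl as a ratio of TMM-normalized counts among 15194 genes with a mean of 10 counts, with an exact binomial interval. TPM used summed exon lengths and positions used GENCODE release 44 on GRCh38, which matched 54836 of 58688 genes.

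The members, gene lists and motifs were chosen with earlier results of these data known. All members were named, the other EPH and ephrin genes where they passed the low-count filter, and at most 6 partners per comparison with the largest changes among those called. Alternatives were other scalings, filters and tests including DESeq2 1.42.0, the replicate block and leaving out each replicate. The scripts were tested on simulated data.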

Additional observations from a re-analysis of the deposited data

How the results depend on the processing

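No direction of a member with Ponatinib reversed in 88 alternative values, of which 79 stayed on the same side of the threshold. The 79 include EPHB3 under DESeq2's Wald test, where no adjusted p was given and the value was counted as not passing. The 54 knockdown values under total counts or DESeq2 size factors stayed within their counting intervals. The number of members changed by Ponatinib was 4, and 2 to 5 when a replicate was left out, 2 of them without DMSO replicate 1. The repeat number did not pair samples (r = 0.017 across 10278 genes), and with it as a replicate block 5 members changed, EPHB3 among them (edgeR adjusted p = 0.036). Without a filter on low counts EPHB3 also passed (edgeR adjusted p = 0.035). Without a filter the knockdowns had 3 of 10 members past 2-fold with ABL1 shRNA in place of 2 of 9. There were 2 with ABL2 shRNA and 2 with both shRNAs in place of 1 each, since EPHB6 with 0 to 3 counts then entered. The matching totals were 8875, 8584 and 8338 of 29691 genes. Over all genes, 4917 changed with Ponatinib, 2809 with DESeq2's Wald test, 2800 without DMSO replicate 1, 3242 without DMSO replicate 2, 5744 without Ponatinib replicate 1 and 5312 without Ponatinib replicate 2. Past 2-fold were 1050, 892 and 880 genes with ABL1 shRNA, ABL2 shRNA and both, 8875, 8584 and 8338 without a filter, 470, 374 and 356 with a mean of at least 50 counts, and 711, 556 and 553 in the fit of all 8 samples. Depth limits EPHB3, EFNA1 and EFNB1, which had under 100 counts in every sample.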

Other observations

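The genes nearest to EPHA2 and EFNB2 were sought by the distance between their 4 log2 fold changes (Ponatinib and the 3 knockdowns, which share shCtrl) among 10399 genes with a mean of at least 100 counts over the 8 samples. Nearest to EPHA2 were FZD8, a Wnt receptor, at a distance of 0.30, PLAUR, the urokinase receptor, at 0.33, and DNMBP, an exchange factor for CDC42, at 0.39. All 3 were lower with Ponatinib, FZD8 by -1.95 and DNMBP by -1.68 on the log2 scale, and with both shRNAs they stood at 0.63, 0.53 and 0.58. Nearest to EFNB2 were ACTN1, an actin crosslinker, WDR20 and UTP18, at distances of 0.068, 0.072 and 0.082. With Ponatinib their log2 fold changes were -0.57, -0.53 and -0.54. The values of these genes follow from the choice by distance, so likeness over 4 comparisons is a description only.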
